A study of Mus musculus with 2 samples.

Results

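The Kruppel-like factors are zinc finger transcription factors, and 10 of their genes (Klf2, Klf3, Klf4, Klf5, Klf6, Klf7, Klf9, Klf10, Klf11 and Klf13) were compared here in endothelial cells, which form the lining of blood vessels. Members were taken by name: every probe set whose single annotated gene symbol was 1 of the 10 was used, which gave 34 of 45101 probe sets and 10 of 18193 named genes. The cells were primary cultures from mid-gestation (E10.5) mouse embryos of strain C57/BL6 homozygous for a floxed Snail1 allele (Snail1f/f), grown in medium with 20% fetal bovine serum and endothelial growth factors. The WT ECs had received an adenovirus carrying β-galactosidase (adeno-βGal), and the Snail1 KO ECs an adenovirus carrying Cre recombinase (adeno-Cre), which removes the floxed part of the gene for Snail1, a zinc finger repressor. Both groups therefore carried the floxed allele and an adenovirus, and effects of Snail1 loss, of Cre and of its virus cannot be told apart. The comparison asks how transcripts differ in embryonic endothelial cells from which Snail1 was to be deleted. Each group held 1 Affymetrix array and no replicate, so every difference below is a description of 2 arrays without a test, and their number limits the precision. In such bulk RNA, fewer cells of a type and less RNA per cell cannot be told apart.

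Kruppel-like factors bind GC-rich and CACCC-like DNA through zinc fingers at their C-terminal end and differ in the N-terminal part that recruits coactivators or corepressors. In endothelium KLF2 and KLF4 are known as flow-responsive factors that lie downstream of the kinases MEKK3 and ERK5 and of MEF2 factors. They are known to favour anticoagulant and vasodilator genes and to restrain inflammatory ones. KLF3 is a repressor that works through CtBP corepressors, and KLF9, KLF10, KLF11 and KLF13 can recruit the SIN3A corepressor.

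Of the 10 genes, 9 had a higher value on the Snail1 KO array and 1, Klf5, a lower one, each taken at its brightest probe set. The differences were moderate. Klf9 (1.70-fold), Klf2 (1.62-fold), Klf10 (1.59-fold), Klf3 (1.55-fold) and Klf11 (1.54-fold) were at least 1.5-fold higher, and none of the 10 was 2-fold higher or 2-fold lower. Klf7 (1.40-fold), Klf4 (1.26-fold), Klf6 (1.13-fold) and Klf13 (1.12-fold) followed, and Klf5 was 1.38-fold lower.

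For scale, 12874 genes had a brightest probe set whose mean over the arrays exceeded the filter level, a log2 value of 3.97, and all 10 Kruppel-like factors were among them. Of these genes, 48.9% had a positive difference and 5.06% were at least 1.5-fold higher on the Snail1 KO array, against 9 and 5 of the 10 Kruppel-like factors. A further 6.08% of genes, and 0 of the 10, were at least 1.5-fold lower. At 2-fold, 0.971% of genes were higher and 1.84% lower, so a set of 10 with none past that threshold differs little from the background. The median log2 difference (Snail1 KO minus WT, as in all differences here) was 0.56 for the 10 genes and -0.01 for all analysed genes. Over the 8240 genes within the members' range of mean values, 6.21 to 10.87, the median was 0.02 and 5.29% were at least 1.5-fold higher. As yardsticks, the robust SD of the difference over all analysed genes was 0.32, and 2 probe sets of the same gene typically gave differences 0.42 apart (SD). Neither replaces replicate cultures.

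**Figure D1:**
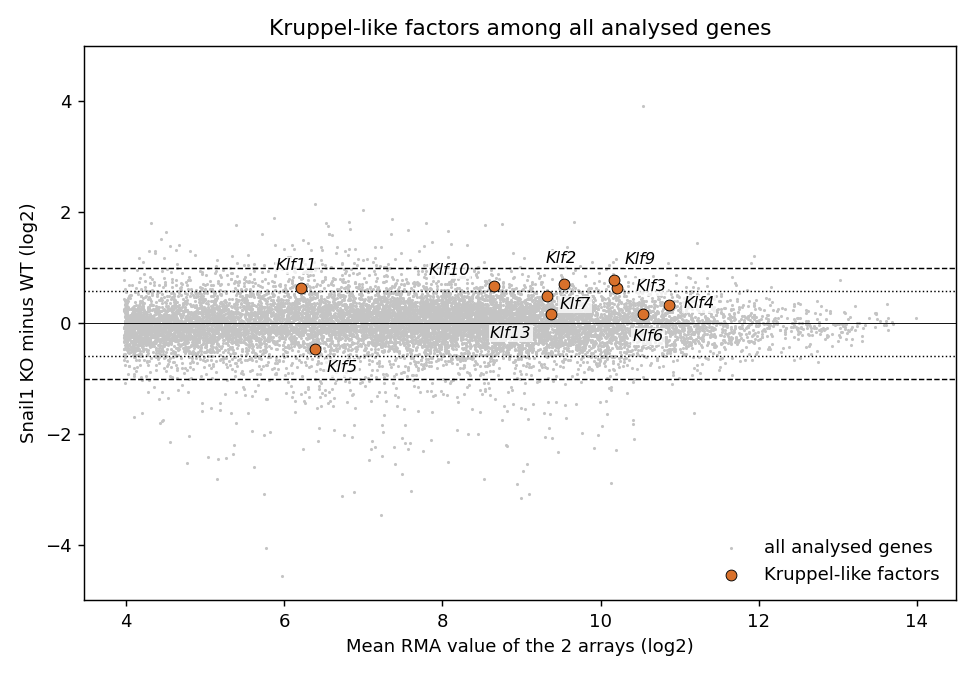
Log2 difference (Snail1 KO minus WT) against the mean RMA value of the 2 arrays, for the brightest probe set of each of 12874 analysed genes (grey) and of the 10 Kruppel-like factors (orange). Dashed lines mark 2-fold and dotted lines 1.5-fold; 9 of the 10 genes lie above 0, 5 of them above the upper dotted line, and Klf5 lies below 0 at -0.47.

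The promoters of Klf2, Klf3, Klf9 and Klf11 are shown because these are the genes among the 5 with the largest differences for which RefSeq promoter sequence of build GRCm38.p6 was at hand. Each runs from 250 bases before to 50 bases after the annotated start, 5′ to 3′ on the strand of the gene. Capitals mark GC boxes (GGGCGG or its reverse complement CCGCCC), the kind of site that Sp and Kruppel-like factors bind, and, in Klf2, a match to the MEF2 consensus.
Klf2, chr8:72318812-72319111, plus strand: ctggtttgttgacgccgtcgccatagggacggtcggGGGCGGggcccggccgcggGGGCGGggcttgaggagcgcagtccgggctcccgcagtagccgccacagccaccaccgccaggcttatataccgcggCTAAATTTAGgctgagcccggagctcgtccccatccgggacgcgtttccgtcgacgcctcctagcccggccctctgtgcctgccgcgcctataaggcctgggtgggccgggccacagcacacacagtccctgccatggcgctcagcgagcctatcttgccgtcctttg
Klf3, chr5:64803271-64803570, plus strand: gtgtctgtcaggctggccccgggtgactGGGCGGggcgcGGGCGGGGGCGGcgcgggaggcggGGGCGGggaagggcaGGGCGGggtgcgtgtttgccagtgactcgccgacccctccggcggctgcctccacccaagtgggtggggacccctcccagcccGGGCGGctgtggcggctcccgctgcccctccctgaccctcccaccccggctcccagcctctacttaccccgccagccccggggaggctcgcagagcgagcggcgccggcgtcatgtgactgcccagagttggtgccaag
Klf9, chr19:23140976-23141275, plus strand: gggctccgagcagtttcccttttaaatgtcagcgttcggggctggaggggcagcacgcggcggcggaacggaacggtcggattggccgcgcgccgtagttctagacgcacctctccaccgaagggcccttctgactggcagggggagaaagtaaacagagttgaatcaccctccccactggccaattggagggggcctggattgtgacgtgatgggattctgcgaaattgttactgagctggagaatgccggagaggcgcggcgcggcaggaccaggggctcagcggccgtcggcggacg
Klf11, chr12:24651121-24651420, plus strand: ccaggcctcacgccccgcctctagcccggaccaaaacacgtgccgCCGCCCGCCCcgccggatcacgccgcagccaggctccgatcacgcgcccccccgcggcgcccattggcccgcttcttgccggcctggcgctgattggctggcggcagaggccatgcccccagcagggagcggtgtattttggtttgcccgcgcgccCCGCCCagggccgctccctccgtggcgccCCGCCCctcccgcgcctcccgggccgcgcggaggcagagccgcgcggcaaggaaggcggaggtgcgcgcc

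Promoters of 8 of the 10 genes were searched on both strands for exact letters, with Klf5 and Klf10 not analysed here. A GC box was present in 7 of the 8 (6 copies in Klf3, 4 each in Klf4 and Klf11, 3 in Klf13, 2 in Klf2, 1 each in Klf6 and Klf7), against 35.7% of all 32851 promoters of the same length. Klf9 had none. The 8 promoters were also rich in G and C, with a median of 70.7% against 52.7% over all promoters, so the letters of the box were more likely by composition. The shorter CACCC box was found in 5 of the 8, against 57.5% of all, and shared a base with a GC box in Klf3 and in Klf13. GC boxes overlapped each other in Klf4 and Klf11.

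The E-box that Snail proteins bind (CACCTG or CAGGTG) was found in none of the 8 promoters and in 20.2% of all promoters. The MEF2 core (TATTTATA on either strand, in 1.70% of all) and the TATA box (TATAAA, in 13.6% of all) were also found in none of them. A looser MEF2 consensus, added after the sequences had been seen, matched 1 of the 8, Klf2, at 118 bases before the start, and 3.19% of all promoters. MEF2 is a known activator of Klf2 downstream of ERK5. These are matches of letters in short windows and say nothing of whether a factor was bound.

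Among the activators of the family, Klf2, which keeps endothelium quiescent under flow, had a value of 9.18 on the WT array and 9.88 on the Snail1 KO array. It was measured by a single probe set, and its log2 difference of 0.70 was higher than that of 96.8% of analysed genes. Klf4, its close relative in endothelium and also a pluripotency factor, was measured by 2 probe sets annotated with the same source sequence. The brighter stood at 10.70 in WT against 11.03 in Snail1 KO and the other at 10.25 and 10.91. Both Klf4 values were thus higher on the Snail1 KO array, but by unlike amounts, 0.33 and 0.66, and the second would place Klf4 past 1.5-fold.

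Klf6, a factor known from vascular injury and wound responses, was nearly level. Its brightest probe set stood at 10.45 in WT against 10.62 in Snail1 KO, and its 5 probe sets differed by between -0.09 and 0.17, with 3 higher and 2 lower. The dimmest, at 4.02 and 3.93, passed the filter through the WT array alone and had to be lower. Klf7, known mainly from neuron development, was higher in all 4 of its probe sets, which share 1 annotated source sequence. The brightest was at 9.08 in WT against 9.56 in Snail1 KO, while the differences ranged from 0.03 to 0.48, so the size for Klf7 depended on the probe set.

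Klf5, which promotes proliferation in epithelia and in smooth muscle, was the only member that was lower. Its brightest probe set stood at 6.63 in WT against 6.16 in Snail1 KO, a log2 difference of -0.47. Its other 2 probe sets were below the filter level on both arrays and were lower too, by differences of -0.34 and -0.11. Markers of smooth muscle and pericytes moved the same way as Klf5. All 4 analysed of the 6 listed markers were lower. Tagln, an actin-binding protein, stood at 10.35 and 7.80 and Acta2, smooth muscle actin, at 10.94 and 9.09. Cnn1 and Pdgfrb were much dimmer and differed by -0.81 and -0.40. The summed linear signal of the 6 was 3345 in WT against 822 in Snail1 KO, nearly all of it from Acta2 and Tagln. Myh11, the smooth muscle myosin, had a mean below the filter level (4.16 and 3.25), as had Rgs5 of pericytes (3.32 and 3.25). The direction was not particular to these markers. The 3 analysed epithelial and 2 analysed leukocyte markers were lower too, each list with a median of -0.16, as was the 1 erythroid marker (-0.01). The 2 analysed fibroblast markers were higher. The part of any of these cells or of a contractile programme in the Klf5 difference was not tested.

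The repressor Klf3 was measured by 7 probe sets, of which 6 were higher on the Snail1 KO array. The brightest stood at 9.89 in WT against 10.53 in Snail1 KO, a difference of 0.64. The next in brightness gave 0.55 (8.94 and 9.49), and the third gave 0.92 (7.90 and 8.82), the largest for Klf3. Another, of similar brightness to the third, gave 0.10 (7.89 and 7.99), and the dimmest, at 4.30 and 4.08, gave -0.22. The 7 Klf3 probe sets are annotated with different source sequences, and which part of the transcript each reads was not analysed here.

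Klf9, a factor known to be induced by glucocorticoids and thyroid hormone, showed the largest difference of the 10 genes at the brightest probe set. It was higher in several of its probe sets. Its 3 brightest probe sets stood at 9.78, 9.72 and 9.61 in WT and at 10.55, 10.31 and 10.35 in Snail1 KO. All 6 Klf9 probe sets above the filter level were higher, by 0.41 to 1.25. The upper end came from a dim probe set (4.58 and 5.84), which was the 1 probe set of the 10 genes past 2-fold. The seventh Klf9 probe set did not reach the filter level on either array, with values of 3.25 and 3.11.

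Klf10 and Klf11, both known as early genes of the TGF-beta response, had 1 probe set each. Klf10 stood at 8.31 in WT against 8.98 in Snail1 KO, a difference of 0.67. Klf11 stood at 5.90 and 6.53, a difference of 0.63. No second probe set was at hand to set beside either value. Klf13, known for its part in lymphocyte chemokine expression, was nearly level, with a brightest probe set at 9.30 and 9.45 and differences of 0.16, 0.30 and -0.11 over its 3 probe sets.

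Counted by probe set, 31 of the 34 lay above the filter level, of which 26 were higher and 5 lower on the Snail1 KO array. The share of all analysed probe sets that were higher was not counted here. The median difference of the 31 was 0.41, against 0.02 over all analysed probe sets of single genes. Among the 5 lower ones, the dimmest of Klf6 had to be lower, as stated above. Of these 31, 11 were at least 1.5-fold higher, against 7.2% of the 23310 analysed probe sets of single genes. Probe sets of 1 gene read the same RNA and are not replicates, and Klf9 supplied 5 and Klf3 2 of these 11. The 3 dim probe sets, of Klf5 and Klf9, were all lower.

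**Figure D2:**
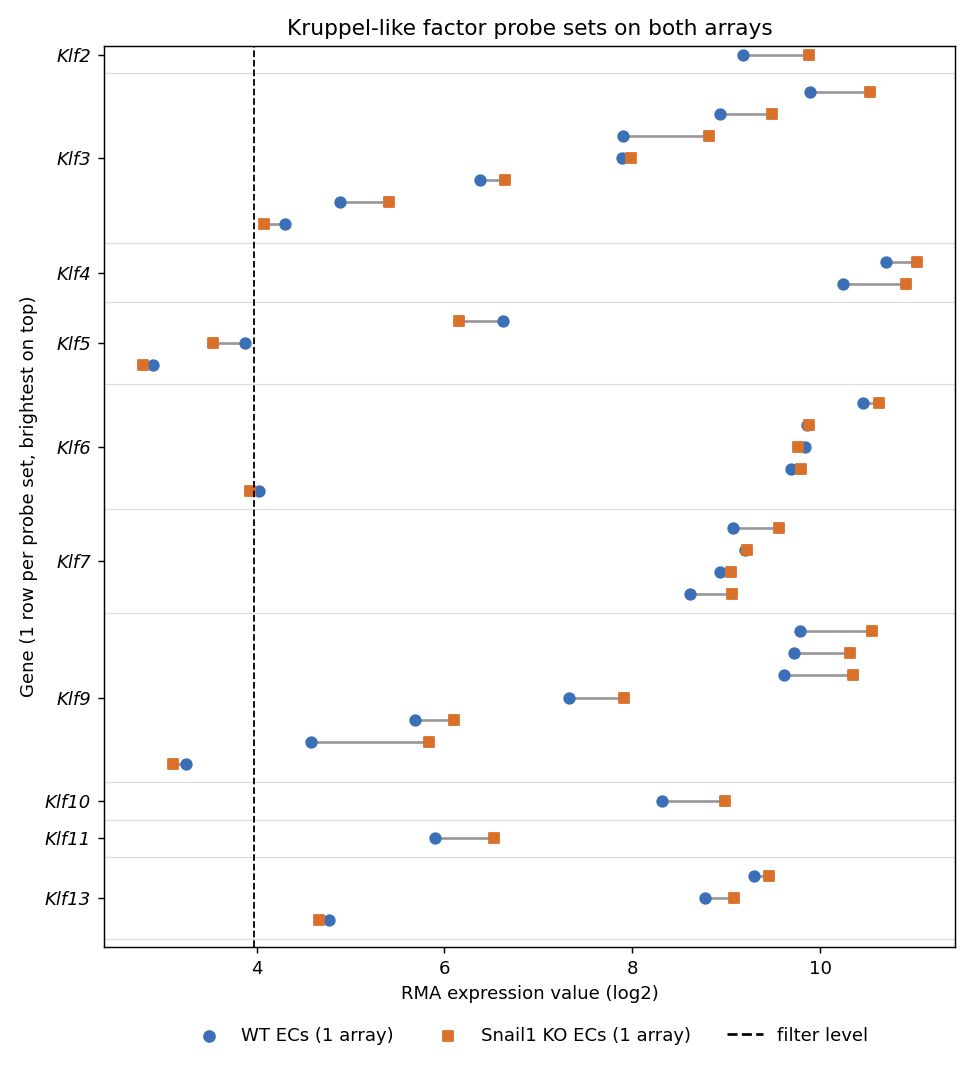
RMA value (log2) of each of the 34 probe sets of the 10 genes on the WT array (blue circles) and the Snail1 KO array (orange squares), grouped by gene, with the filter level of 3.97 as a dashed line. The squares lie to the right of the circles in all probe sets of Klf2, Klf4, Klf7, Klf10 and Klf11 and in all 6 Klf9 probe sets above the filter level, and to the left in all 3 of Klf5.

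Other members of the family, Klf12 apart, differed little. Of 6 other Klf genes with a probe set, 4 passed the filter, and all 4 were higher, with a median difference of 0.16. Klf15 (3.93 and 4.06) passed through the Snail1 KO array alone and had to be higher, so it lends no support to that count or median. Klf12, a repressor related to Klf3, stood at 5.27 and 5.94 (1.59-fold higher), but at a probe set of a kind that can bind transcripts of several genes. The other 4 Klf12 probe sets were below the filter level. Klf14, Klf15 and Klf16 differed by 0.19, 0.14 and 0.11. Klf1, the erythroid factor, and Klf17 had means below the filter level. Of the related Sp genes 5 were analysed, with a median of 0.08, 3 higher and 2 lower. Sp3 stood at 8.91 and 9.46 and Sp1 at 9.19 and 9.58, although Sp1 had a probe set at -0.30, and Sp4 and Sp6 differed by -0.14 and 0.08. Sp5, a target of Wnt signalling, was the only Sp gene past 2-fold, at 7.38 in WT against 5.49 in Snail1 KO.

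Genes that act upstream of KLF2 and KLF4 showed small positive differences. Of 12 analysed genes of the MEKK3, ERK5, MEF2 and cerebral cavernous malformation pathway, 10 were higher and 2 lower, with a median of 0.19, and none was 1.5-fold higher or lower. Map2k5, the kinase that activates ERK5, stood at 7.75 and 8.16, with probe sets from -0.10 to 1.04. Krit1, a cerebral cavernous malformation gene that holds MEKK3 signalling in check, stood at 7.32 and 7.69, and its partner Ccm2 at 10.17 and 9.79, the largest negative difference of the list (-0.39). Hdac5, a repressor of MEF2, differed by 0.33 and Mef2d by 0.30. For Mef2a the brightest probe set differed by 0.18 and its 6 probe sets by up to 1.63, and for Mef2c the brightest of 5 differed by 0.09 and another by 0.72, so the small sizes hold for the brightest probe sets only. Mapk7, which encodes ERK5, differed by 0.21, and ERK5 activity, which rests on phosphorylation, was not measured.

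Partners of the Klf proteins were nearly level too at their brightest probe sets. Of 13 analysed cofactor and ubiquitin ligase genes, 9 were higher and 4 lower there, with a median of 0.12 and none past 1.5-fold. Crebbp, on this list, differed by 0.09 at its brightest probe set but by 0.60, past 1.5-fold, at another. The CtBP genes Ctbp1 and Ctbp2, partners of KLF3, differed by 0.14 and -0.11. Sin3a differed by 0.18 and Sin3b, at 10.55 and 10.20, by -0.35, with probe sets from -0.42 to 0.38. Wwp1, a ubiquitin ligase that targets KLF2 and KLF5, differed by 0.28, Fbxw7, another ligase, by 0.27 and Kat2b, a histone acetyltransferase, by 0.23.

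Genes known to be raised by KLF2 or KLF4 in endothelium did not differ in 1 direction. Of 10 analysed, 5 were higher and 5 lower, the median was -0.04, and none was 2-fold higher or lower. Nqo1, a quinone reductase, stood at 10.24 in WT against 11.10 in Snail1 KO (1.81-fold higher), the gap junction gene Gja4 at 4.24 and 5.01 (1.70-fold) and the angiopoietin receptor Tek at 9.18 and 9.80 (1.53-fold). Against these, Thbd, thrombomodulin, stood at 11.06 and 10.48, and Nos3, endothelial nitric oxide synthase, at 8.57 and 8.07. Both are among the genes best known to respond to KLF2, and both were lower (-0.58 and -0.50) on the array where Klf2 and Klf4 were higher.

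Genes known to be lowered by KLF2 or KLF4 were mostly lower on the Snail1 KO array. Of 9 analysed, 7 were lower and 2 higher, with a median of -0.73, and 4 were at least 2-fold lower. F3, tissue factor (5.01 and 3.39), and Sele, E-selectin (5.10 and 3.73), are 2 of these 4, but they passed the filter through the WT array alone and had to differ, so their counts lend no support to a lower list and their sizes are uncertain. Ccl2, a monocyte chemokine, stood at 11.47 and 9.38 (4.27-fold lower). The chemokine Cxcl12 stood at 9.11 and 6.08 at its brightest probe set, but its 3 probe sets differed by between -3.03 and -0.46, and it is less surely a member of this list. Without Cxcl12, a choice made after seeing the data, the median was -0.70, with 3 genes 2-fold lower, of which F3 and Sele are 2. Both medians include F3 and Sele. A filter at the 60th percentile, which drops these 2 and keeps Cxcl12, gave a median of -0.68. The peptide Adm was 1.65-fold lower and Vcam1, a leukocyte adhesion molecule, 1.60-fold lower at its brightest probe set, with a difference of -2.47 at another. Kdr and Angpt2 were higher, by 0.49 and 0.24. The smooth muscle and pericyte markers given beside Klf5 were lower too, with a median of -1.33 over the 4 analysed. Several genes of the list are also induced by inflammatory signals or expressed by other cells, and the part of such cells or of the higher Klf2 and Klf4 values in their differences was not tested.

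Some Kruppel-like factors, among them Klf2, Klf4, Klf6 and Klf10, are known to be induced early after stimulation, like the immediate early genes. The 13 analysed immediate early genes had a median of -0.37, with 9 lower and 4 higher, 4 of them past 2-fold in the lower direction and 0 in the higher. Egr1 stood at 7.66 and 6.13, the nuclear receptor Nr4a1 at 9.62 and 8.17, Zfp36, an mRNA decay factor, at 7.28 and 5.87, and Atf3, a stress-induced factor, was 2.25-fold lower. Fos was 1.68-fold lower (9.62 and 8.87). The values of Klf2, Klf4 and Klf10 thus lay on the other side of 0 from the median of these genes. Klf6 was nearly level, with probe sets from -0.09 to 0.17. Of the immediate early genes, Dusp1 (0.21), Egr3 (0.25), Ier2 (0.11) and Btg2 (0.01) were higher too.

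For Klf9, the 6 listed genes of the glucocorticoid response had a median of 0.12, with 4 higher and 2 lower. Tsc22d3, a glucocorticoid-induced inhibitor known as GILZ, was at 6.86 and 7.73 (1.83-fold higher), with probe sets from 0.18 to 1.06. The receptor gene Nr3c1 differed by 0.19 at its brightest probe set, but its 5 analysed probe sets ranged from -0.06 to 0.93. Sgk1 differed by 0.30, Fkbp5 by 0.05, Per1 by -0.21 and Zbtb16 by -0.16. For Klf10 and Klf11, the 7 analysed genes of the TGF-beta and BMP response had a median of 0.04 at their brightest probe sets. There 4 were higher and 3 lower, and none was past 1.5-fold. Id1 and Id2 differed by 0.37 and 0.36 and the inhibitor Smad7 by -0.32, with Id3 at 0.17 and Smad6 at -0.13. Another Id2 probe set gave 0.62, past 1.5-fold, and a dimmer probe set of Skil, also listed, gave -0.51.

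**Figure D3:**
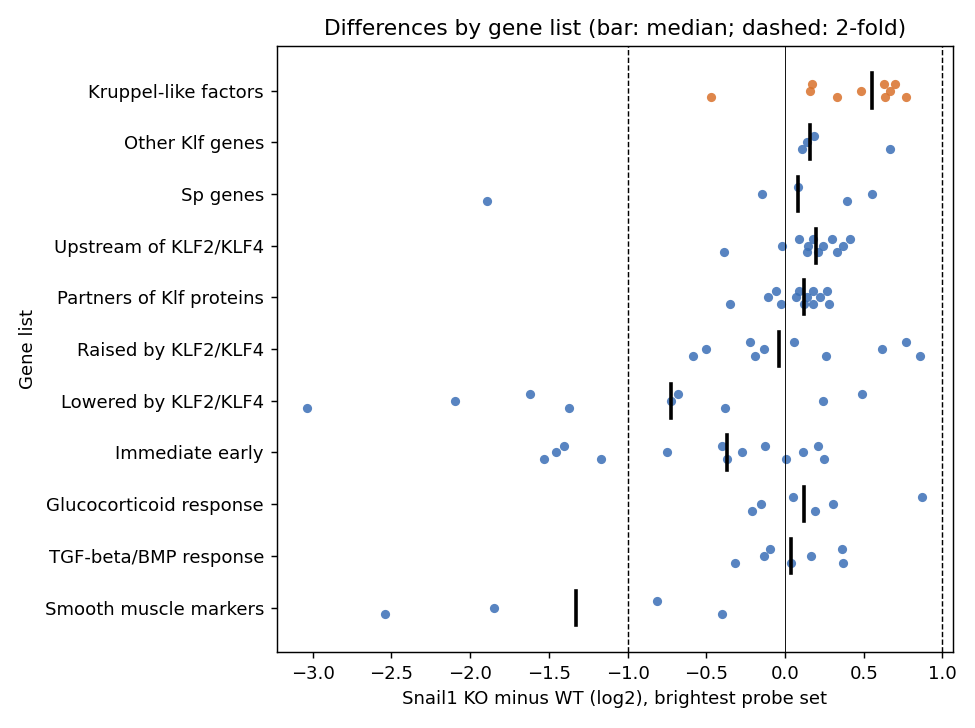
Log2 difference (Snail1 KO minus WT) at the brightest probe set of each analysed gene (points) of the Kruppel-like factors (orange) and of 10 other lists (blue), with the median of each list as a black bar and 2-fold as dashed lines. The Kruppel-like factors have a median of 0.56, the genes lowered by KLF2 or KLF4 one of -0.73 and the immediate early genes one of -0.37. The value of -0.73 includes F3 and Sele, which passed the filter through the WT array alone. A gene in several lists appears in each.

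Checked against the labelled cell type, all 10 endothelial markers passed the filter, with values from 9.18 to 13.36, a median difference of 0.08, 6 higher and 4 lower. Cdh5, VE-cadherin, was at 11.34 and 11.46 and Pecam1 at 10.18 and 10.22, while the tight junction gene Cldn5 was at 11.36 and 12.44 (2.11-fold higher), Kdr and Tie1 differed by 0.49 and 0.40, and Emcn and Esam by -0.40 and -0.33. Of markers of other cell types, 4 of 6 smooth muscle and pericyte (values under Klf5), 2 of 5 leukocyte, 2 of 4 fibroblast, 3 of 4 epithelial and 1 of 3 erythroid markers passed, with Ptprc, Pdgfra, Lum, Cdh1 and Hbb-bh1 having means below the filter level. Among those that passed, Dcn, a fibroblast proteoglycan, stood at 9.45 and 9.62, Cd68, a macrophage protein, at 7.27 and 7.20 and the keratin Krt18 at 6.15 and 4.86 (2.45-fold lower). Snai1 was at 5.33 on the WT array and at 3.59 on the Snail1 KO array, under the filter level, and the labels do not say whether its 1 probe set lies in the deleted part.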

How the data were processed

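RNA of 2 samples, 1 per group, was hybridised to Affymetrix mouse arrays; 250 ng of total RNA were amplified and biotin-labelled, per the labels' protocols. The deposited values are log2 expression per probe set, made by the authors with RMA in affy, per the submitters' processing notes; tool versions: not given in the sources used here. RMA equalises the distributions of the arrays, so a change of total mRNA cannot be seen, and it compresses differences of dim probe sets. Detection calls were not used here.

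Genes were named through the platform annotation, which can be old; probe sets with several symbols or none (932 and 9160) were left out, and Klf8, Sp2 and Sp9 of the lists were not analysed here. The brightest probe set stood for a gene, and genes with a mean above the 40th percentile of the probe sets other than controls were analysed. Sizes were counted at 2-fold, and at 1.5-fold where stated, with Python 3.11.15 and pandas 2.3.3. The counting was tested on simulated data. No p-value was computed.

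The text names all 10 members, Snai1, Cdh5, Pecam1 and, of the comparison lists, the genes that differed most; others, among them the least-changed list genes and the markers below the filter level, were picked once their values had been seen. The members and lists were chosen with earlier results of these data known. Protein sequences were not analysed here.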

Additional observations from a re-analysis of the deposited data

Results flagged for a closer look

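The 4 control probe sets that read phage P1 Cre, outside every gene comparison, were brighter on the Snail1 KO array, by log2 differences of 8.04 to 10.17. Their values were 2.69 to 3.83 on the WT array and 11.87 to 12.86 on the Snail1 KO array, which had received the Cre virus. No array of cells given Cre without a floxed Snail1 was analysed here, and the part of Cre in the Kruppel-like factor differences was not tested.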

How the results depend on the processing

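Leaving out an array was not possible with 1 per group. No paired analysis was possible because each group has 1 array and no test. The differences of all 10 Kruppel-like factors kept their sign when all probe sets of a gene were averaged, with a median of 0.44. Averaging could not move Klf2, Klf10 and Klf11, which have 1 probe set each. The median was 0.56 when probe sets with names ending in _s_at or _x_at, which can bind transcripts of several genes, were left out. Those ending in _a_at were kept, among them the brightest of Klf5, Klf6 and Klf9. The median was 0.52 when arrays were centred on their medians (a shift of 0.04). Neither of these settings could change a member's sign. No member's brightest probe set was left out, and the shift was smaller than every member's difference. The number of members at least 1.5-fold higher was 5, and 4 with the mean of all probe sets, which put Klf3 at 0.39. Of all 12874 analysed genes, 652 were at least 1.5-fold higher, and 482 with that mean. This combined check was added after the data had been seen. By construction the threshold moved counts: at 1.5-fold 652 genes were higher and 783 lower, with 5 Kruppel-like factors, 1 other Klf gene, 3 genes raised by KLF2 or KLF4 and 1 glucocorticoid response gene higher, and at 3-fold 23 and 90 genes, with 0 immediate early genes lower. Averaging probe sets left 77 genes at least 2-fold higher. The median of genes raised by KLF2 or KLF4 then changed sign to 0.039, and that of genes lowered by them, F3 and Sele included, was -1.37. A filter at the 60th percentile, which drops F3 and Sele, left 2 genes of the latter list 2-fold lower, and no filter, which adds Sp7 and Sp8, put the Sp median at 0.37. The cause of the shifts with averaging was not tested. Dim probe sets have no measured background here.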
